A study of Mus musculus with 4 samples.

Results

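The genes for the proteins of the cytosolic ribosome were described in mouse T-helper 17 (Th17) cells, the CD4 T cells known for producing interleukin 17. They were the protein coding genes whose symbol is Rpl or Rps followed by a number, with or without a further letter and number, together with the Rplp genes and Rpsa. This rule found 83 of the 50600 genes counted. Of these, 77 were core genes, 46 for the large and 31 for the small subunit, and 6 were copies of a core gene (Rpl3l, Rpl7l1, Rpl10l, Rpl22l1, Rpl39l and Rps27l). Pseudogenes were left out, and so were ribosomal components such as Fau, Rack1 and Rpl36al, whose symbols the rule does not reach.

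The cells were primary Th17 cells from mice of strain C57BL/6NJ, and 4 RNA-seq libraries of 1 group were made from them, numbered as biological replicates 1 to 4. No treatment or genotype separates them, and the labels link 1 protocol for the differentiation of CD4 T cells. The labels give age as unknown and sex as not collected, and list each library under its own biosample with 1 donor identifier for all. Since separate animals or cultures are not stated, each SD and p-value below covers only how far these libraries differ. The labels call the assay total RNA-seq, whereas the library protocol they link is named for poly(A)+ RNA.

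A cytosolic ribosome joins a small subunit, which reads the messenger RNA, and a large subunit, which forms the peptide bond. Each subunit is built on ribosomal RNA and holds nearly every one of its proteins in a single copy, except the acidic stalk proteins of the large subunit. In mammals most ribosomal protein messenger RNAs begin with a C and a run of pyrimidines, the 5′ terminal oligopyrimidine (TOP) motif, through which mTOR controls their translation. T cells raise ribosome production when they are activated and begin to divide.

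The start sites of these genes are shown because this motif is what the genes are known to share and the choice by symbol made no use of it. Windows around 75 annotated starts of 63 of the genes were matched in the RefSeq promoter table (GRCm38.p6). A TOP-like start was taken as a C at the first base of the transcript followed by 4 pyrimidines. The lines below run from 50 bases before the start to 15 bases into the transcript, 5′ to 3′, with the pyrimidine run that begins at the annotated start in capitals.
Rps27 (chr3:90213634-90213698, minus strand): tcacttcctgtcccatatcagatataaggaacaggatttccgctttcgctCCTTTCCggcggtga
Rplp2 (chr7:141447601-141447665, plus strand): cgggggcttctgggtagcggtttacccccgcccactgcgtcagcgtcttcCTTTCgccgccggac
Rps6 (chr4:86857353-86857417, minus strand): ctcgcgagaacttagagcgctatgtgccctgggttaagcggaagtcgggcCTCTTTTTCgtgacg
Rpl15 (chr14:18270972-18271036, minus strand): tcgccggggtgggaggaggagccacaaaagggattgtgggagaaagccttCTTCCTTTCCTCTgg
Rpl35 (chr2:39005117-39005181, minus strand): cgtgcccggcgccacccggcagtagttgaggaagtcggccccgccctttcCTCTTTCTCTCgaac
Rps10 (chr17:27635230-27635294, minus strand): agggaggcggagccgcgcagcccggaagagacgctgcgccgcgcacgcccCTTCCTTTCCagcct
For comparison, the next lines show 1 window each of 2 highly expressed genes and of the lowest core gene, in which the annotated start is not TOP-like and nothing is in capitals.
Rplp0 (chr5:115559417-115559481, plus strand): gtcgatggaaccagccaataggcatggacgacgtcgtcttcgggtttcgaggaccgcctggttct
Rps15 (chr10:80292381-80292445, plus strand): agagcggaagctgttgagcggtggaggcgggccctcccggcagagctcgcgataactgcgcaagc
Rpl24 (chr16:55966225-55966289, plus strand): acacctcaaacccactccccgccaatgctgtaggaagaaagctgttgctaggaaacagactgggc

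By this rule 13 of the 75 windows, in 13 genes, had a TOP-like start (17.3%, 95% Wilson interval 10.4 to 27.4%), against 469 of 21263 windows of all protein coding genes in the table (2.21%). The share depends on where the start is annotated. With 1 base of tolerance on either side it was 19 of 75 (25.3%), against 6.18% of all windows, and a run of 8 pyrimidines within 25 bases of the start was found in 34 of 75 (45.3%), against 19.3%. At the first base of the GENCODE M21 principal transcript it was 8 of 83 genes (9.64%), against 2.23% of 21695 protein coding genes. Among core genes, the 13 with a TOP-like start had a median level of 1081 TPM, and the 44 with a window but no such start had a median of 1036 TPM. With the length of the principal transcript as divisor the order turned, with medians of 1659.8 and 1805 TPM. Since this split follows the annotated first base, genes with the motif can lie in either group.

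Other letters were searched on both strands of the same windows, which reach from 250 bases before the start to 50 after it. CCGGAAG, the core of sites for ETS family factors, was in 27 of 75 windows (36.0%), against 11.6% of all windows. AAGATGGC, the core of sites for the factor YY1, was in 8 of 75 (10.7%), against 3.05%. Those windows belong to Rpl13a, Rpl22, Rpl35a, Rpl7l1, Rps15a and Rps27, and Rpl35a gave several that overlap, so they are not separate genes. No window of the ribosomal protein genes held both CCGGAAG and AAGATGGC, against 0.564% of all windows. With only 8 windows holding AAGATGGC, some of them overlapping, nothing is read into the absence. TATAA was in 18 of 75 windows (24%), against 21.9%. These are matches of letters, not measured binding, and a window without a match says nothing about the factor.

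The ribosomal protein genes took 5.92, 6.63, 5.23 and 6.66% of all counts in replicates 1, 2, 3 and 4, on average 6.11 ± 0.677% (SD, n = 4). Replicate 3 had the smallest share and replicates 2 and 4 the largest. Total counts were 36298276, 40652146, 26953724 and 25847970, so the 95% Wilson interval of the share in replicate 3 was 5.22 to 5.24% and those of the others were as narrow; intervals cover counting error only. The 46 core genes of the large subunit took 3.24 ± 0.347% and the 31 of the small subunit 2.84 ± 0.327%. The copies took 0.0297 ± 0.00289%, and 283 pseudogenes named after a ribosomal protein gene with the ending -ps took 0.0244 ± 0.00261%.

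**Figure D1:**
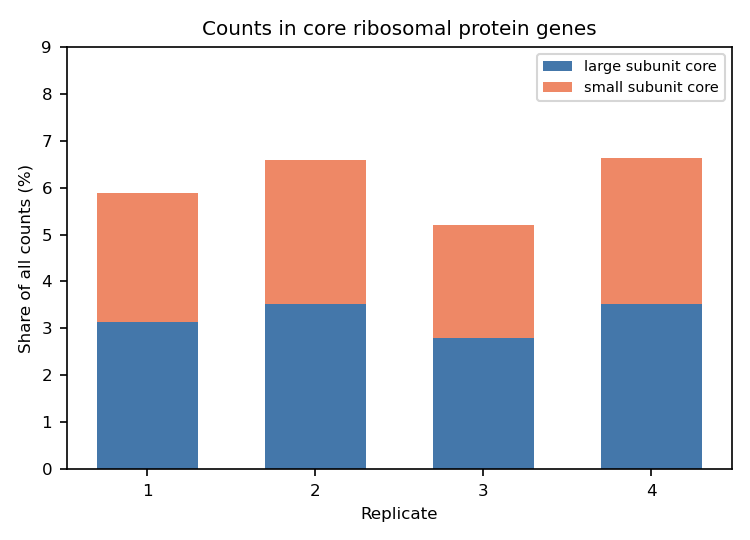
Share of all counts (%) in the core ribosomal protein genes in each of the 4 Th17 libraries, as stacked bars for the large subunit (46 genes, lower) and the small subunit (31 genes, upper). Both subunits have their smallest share in replicate 3, at 2.80% for the large and 2.41% for the small subunit.

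Library identity was checked before the levels. The T cell genes Trac, Cd3e, Cd3g, Cd4 and Cd2 stood between 214 and 3787 TPM in every library. Markers of B cells (Cd79a, Ms4a1), myeloid cells (Lyz2, Itgam, Csf1r), NK cells (Ncr1, Klrb1c) and erythroid cells (Hbb-bs, Hba-a1, Alas2) stood at or below 1.54 TPM, 6 of them with no count in any library. Among Th17 genes, Il17a stood at 6.09, 4.12, 5.41 and 6.96 TPM and Il17f at 10.2, 7.04, 11.7 and 20.8 TPM, whereas the receptors Ccr6 and Il23r rested on 15 and 11 counts in all. Rora, a nuclear receptor of the lineage, stood at 8.75, 12.3, 11.4 and 6.85 TPM. Of the CD8 markers, Cd8a had 5, 18, 9 and 0 counts and Cd8b1 stood at 20.9 to 31.2 TPM. The libraries differed in Xist, which marks cells with an inactive X chromosome. Replicates 1 and 2 had 0.791 and 0.602 TPM, whereas replicates 3 and 4 had 142 and 76.5 TPM. The cause of this gap was not tested.

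Levels of the genes were compared as TPM, which divides counts by the total exon length of the gene and scales each library to the same sum. All 77 core genes were detected in every library, with at least 548 counts each. Their mean levels ran from 74.6 to 11903 TPM, a 160-fold span, with a median of 1121 TPM and quartiles at 625 and 2275 TPM. Of the 77, 44 lay within a factor of 2 of the median, so the levels were far from equal. Members made up 20 of the 50 highest protein coding genes and 38 of the 100 highest. The 5 highest core genes held 26.1% of the summed TPM of the core genes, and the 10 highest held 39.8%.

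**Figure D2:**
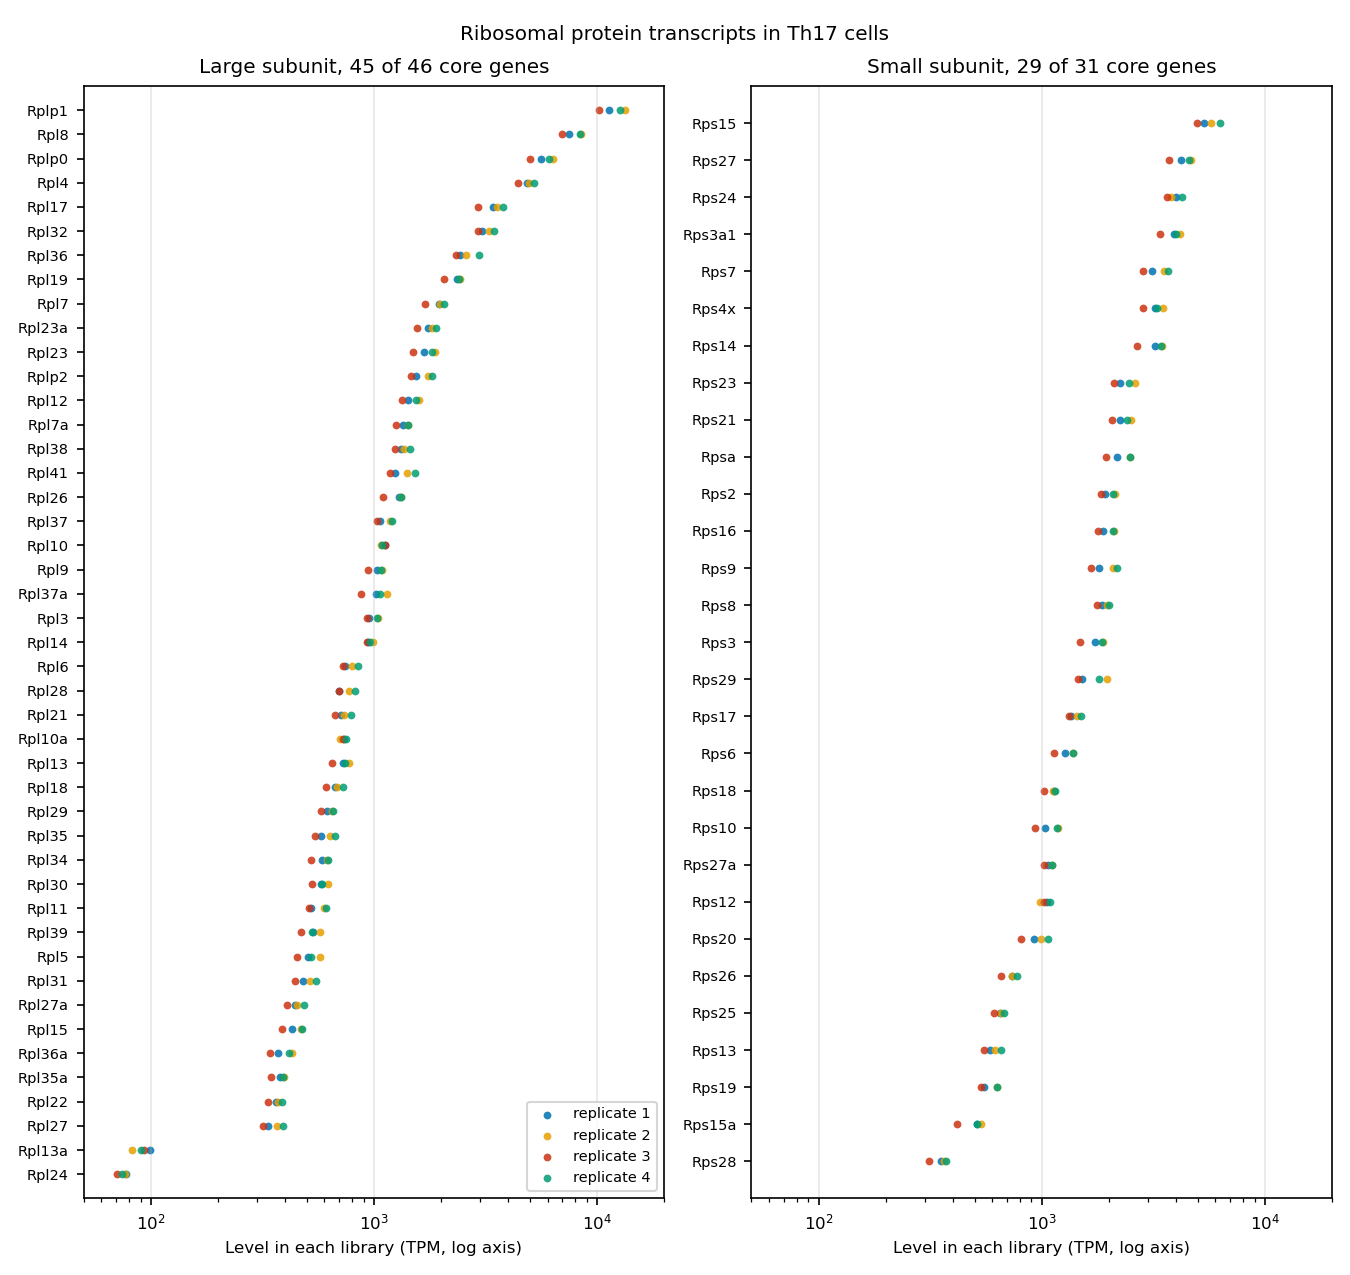
Level of core ribosomal protein genes in each of the 4 Th17 libraries (TPM, log axis), ordered by mean within the large subunit (left, 45 of 46 genes) and the small subunit (right, 29 of 31 genes), with 1 point per library. Rplp1 stands at the top and Rpl13a and Rpl24 at the bottom, and the points of replicate 3 lie to the left in most genes.

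The stalk of the large subunit, which recruits the elongation factors, held the highest gene of all. Rplp1, an acidic stalk protein on chromosome 9 (61913284 to 61914542, minus strand), stood at 11327, 13383, 10179 and 12724 TPM in replicates 1, 2, 3 and 4 (mean 11903 ± 1434, SD, n = 4). It ranked 4th among all 21764 protein coding genes. Rplp0, the base on which the stalk is built (chromosome 5, 115559467 to 115563727), stood at 5627, 6344, 5025 and 6081 TPM. Rplp2, the partner with which Rplp1 pairs in the stalk (chromosome 7, 141447370 to 141451585), stood at 1541, 1748, 1461 and 1826 TPM. In each of the 3 stalk genes replicate 3 was the lowest library and replicates 2 and 4 the highest. Rplp1 shares 75.1% of its 31-base words with other genes, against 22.9% for Rplp2, and fragments that align to several places were not counted, so the distance between the 2 genes is uncertain.

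Of the other high genes, Rpl8 and Rpl4 encode large subunit proteins near the catalytic centre and along the exit tunnel. Rpl8 (chromosome 15, 76904071 to 76906318) stood at 7463, 8469, 7001 and 8406 TPM, the second highest core gene. Rpl4 (chromosome 9, 64173375 to 64178666) stood at 4867, 4961, 4441 and 5205 TPM. It also holds 5 small nucleolar RNA (snoRNA) genes inside its bounds, more than any other member. Rps15, a protein of the head of the small subunit (chromosome 10, 80292453 to 80294114), stood at 5313, 5762, 4982 and 6302 TPM, the highest level of the small subunit. For these 3 genes the order of Rpl8 above the others held in every library, whereas Rps15 lay above Rpl4 by only 1.09 to 1.21-fold. With principal transcript lengths, however, Rpl8 lay below Rps15, with means of 4711 and 5011 TPM.

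The lowest core genes were Rpl24 and Rpl13a, and both carry a limit from the annotation. Rpl24, which forms a bridge between the subunits (chromosome 16, 55966275 to 55971435, plus strand), stood at 77.5, 76.6, 70.2 and 74.1 TPM. Rpl13a, known in human myeloid cells also as part of a complex that silences inflammatory messenger RNAs (chromosome 7, 45125558 to 45128761, minus strand), stood at 99.5, 82.2, 92.9 and 90.1 TPM. In the deposited exon coordinates, 47.0% of the exon length of Rpl24 is also exon of Gm28037 on the same strand. Gm28037 had 1 count in all 4 libraries together. For Rpl13a, 35.4% is shared, 29.4% with Gm45713, which had 0 counts. Fragments that overlap 2 genes were not counted, so the levels of both are uncertain; they were the only core genes with over 20% of their exon length shared, of 26 with any. Without Rpl13a and Rpl24 the core genes spanned 33.9-fold.

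Next above them came Rps28, Rpl27 and Rpl22. Rps28, a small subunit protein near the exit of the messenger RNA channel (chromosome 17, 33819027 to 33824562), stood at 353, 365, 314 and 374 TPM. Rpl27, a large subunit protein (chromosome 11, 101442298 to 101445529), stood at 335, 366, 317 and 390.3 TPM. Rpl22, whose loss in mice blocks the development of alpha beta T cells (chromosome 4, 152325742 to 152334071), stood at 366, 372, 336 and 389 TPM. The ranges of these 3 genes over the libraries overlapped, with means of 352 ± 26.5, 352 ± 32.5 and 366 ± 21.99 TPM (SD, n = 4).

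The other 67 core genes lay between these extremes, from 378 ± 21.98 TPM for Rpl35a to 4300.3 ± 435 TPM for Rps27. Between libraries the core genes had a coefficient of variation of TPM with a median of 8.13% (2.08 to 14.1%), and 7 of the 77 were under 5%. Some have known roles beyond the ribosome; these were named for their roles after the values were seen. Rps6, the substrate of S6 kinase below mTOR, stood at 1268, 1381, 1129.9 and 1386 TPM in replicates 1, 2, 3 and 4. Rpl5 and Rpl11 bind the 5S ribosomal RNA and can restrain Mdm2, the inhibitor of p53. Rpl5 stood at 507, 574, 452 and 523 TPM, and Rpl11 at 520.4, 598, 514 and 609 TPM. The 2 genes overlapped in range over the libraries.

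Rps3, which in T cells is also known to bind the NF-kB subunit p65, stood at 1733, 1883, 1480.01 and 1863 TPM. Rps27a, made as a fusion with ubiquitin, stood at 1064, 1117, 1021 and 1109 TPM. Rps19, the gene most often mutated in human Diamond-Blackfan anaemia, stood at 554, 632, 533 and 628 TPM. Rpsa, also known as a laminin receptor, stood at 2186, 2491, 1937 and 2484 TPM. In each of these 4 genes replicate 3 was the lowest library and replicates 2 and 4 lay above replicate 1.

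How length is counted changes the order. The exon union used here had a median of 1734 bp over the core genes, against 886 bp for the GENCODE M21 principal transcript, the transcript that the annotation takes as the main one. Across the 77 genes the Spearman correlation between the levels under both lengths was 0.78, a description only, since both use the same counts. Under principal lengths the core genes ran from 80.8 to 9251 TPM with a median of 1884 TPM. Rps27 then ranked first of the 83 genes at 9251 ± 963 TPM, and Rplp1 second at 8470.3 ± 1045 TPM. Rps24 moved down to rank 49 under principal lengths, against rank 7 under union lengths, and Rpl35a moved up to rank 41, against rank 72. The principal lengths come from GENCODE M21, whereas fragments were counted on GENCODE M13 exons. For Rps24 the principal transcript, at 1613 bp, is longer than the exon union of 840 bp, and for Rpl8 it is 1020 against 862 bp. Such moves therefore also reflect the change of annotation. Rpl24 and Rpl13a stayed the lowest core genes under both.

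**Figure D3:**
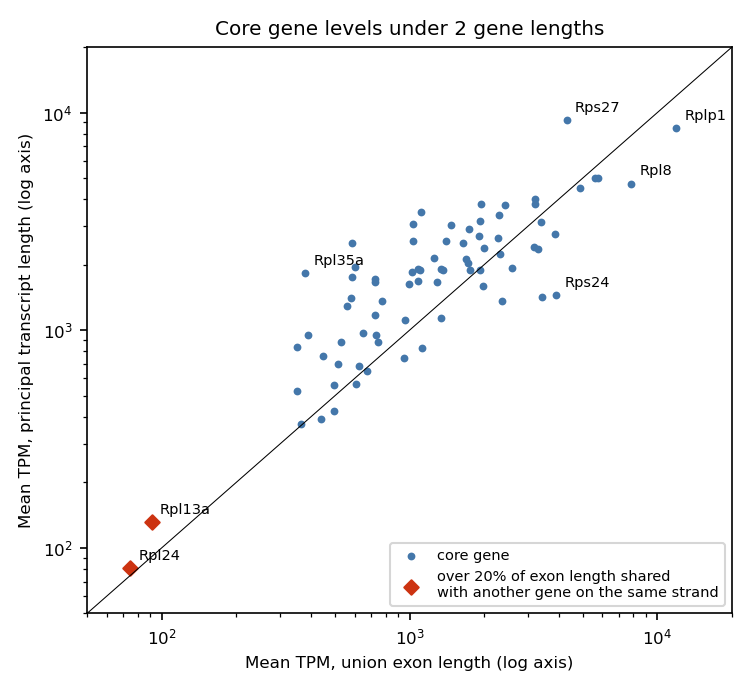
Mean level of each of the 77 core genes over the 4 libraries with the union of annotated exons as length (TPM, horizontal log axis) and with the principal transcript as length (TPM, vertical log axis), with the line of equal values. Rpl13a and Rpl24 (diamonds, over 20% of exon length shared with another gene on the same strand) lie at the bottom left under both lengths, while Rps24 lies below the line and Rpl35a above it.

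Large subunit genes stood lower than small subunit genes, with medians of 973 TPM over 46 core genes and 1899.7 TPM over 31. Within libraries the difference in median log2(TPM + 1), large minus small, was -0.94, -0.95, -0.88 and -1.002 in replicates 1, 2, 3 and 4, on average -0.94 ± 0.05 (SD, n = 4). It was below 0 in 4 of 4 libraries, and with principal transcript lengths it was -0.59. As a score over chosen genes it has no test.

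The core genes were then set beside the ribosomal proteins of mitochondria, which translate the few messenger RNAs of the mitochondrial genome, and beside 20 translation-related genes. These were 16 initiation and elongation factors, Pabpc1, which binds poly(A) tails, Npm1, a nucleolar chaperone, Nap1l1, a histone chaperone, and Tpt1. The core genes lay above the 78 mitochondrial ribosomal protein genes (median 26.0 TPM, highest 145 TPM) by 5.43 ± 0.05 in median log2(TPM + 1), in 4 of 4 libraries, and 75 of 77 stood above the highest of them. The exceptions were Rpl24 and Rpl13a. Mitochondrial ribosomal protein genes took 0.168 ± 0.00732% of counts, against 6.08 ± 0.674% for the core genes. Above the 20 translation-related genes (median 526 TPM) the difference was 1.16 ± 0.04, in 4 of 4 libraries, and 65 of 77 core genes exceeded their median. Above the 16 initiation and elongation factors alone (median 418 TPM) it was 1.47 ± 0.07. The factor Eef1a1, which delivers transfer RNA to the ribosome, stood above every ribosomal protein gene at 14744 ± 1146 TPM.

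Among ribosomal components outside the rule, Fau, made as a fusion of a ubiquitin-like protein with a small subunit protein, stood at 2464, 3060.1, 2261 and 3005 TPM. Rack1, a scaffold on the small subunit, stood at 1606, 1608, 1370.1 and 1555 TPM, and Rpl36al, the copy of Rpl36a that the rule leaves out, at 231, 248, 209.7 and 246 TPM. Each of the 3 had its lowest library in replicate 3.

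The 6 copies fell into those well above 0 TPM and those near it. Rpl22l1 (chromosome 3, 28805436 to 28807424), which in mice can take the place of Rpl22, stood at 262, 259.8, 237 and 229 TPM, close to Rpl22 at 366, 372, 336 and 389 TPM. The copy was lower in each library, by -0.56 ± 0.13 in log2(TPM + 1) (SD, n = 4). This order rests on the lengths: with principal transcripts, 552 bp for Rpl22l1 and 2051 bp for Rpl22, the copy was higher, by 0.78 on the same scale. In counts the copy had 5478, 6320.0, 3578 and 3523, against 11189, 13234, 7416 and 8755 for Rpl22.

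Rpl7l1 (chromosome 17, 46773907 to 46782656) stood at 194, 166, 146 and 200.5 TPM, against 1949, 1979.8, 1701 and 2070.1 TPM for Rpl7, a large subunit protein. Every library of the copy lay below every library of its partner, by -3.44 ± 0.12 in log2(TPM + 1), or by -4.65 with principal transcript lengths. Rps27l, a copy known in human and mouse cells as a target of p53 (chromosome 9, 66946086 to 66949516), stood at 78.6, 66.5, 63.1 and 85.001 TPM, against 4218, 4676, 3719 and 4589 TPM for Rps27. The difference was -5.86 ± 0.18, or -6.75 with principal transcript lengths. In both copies replicate 4 was the highest library and replicate 3 the lowest.

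Rpl39l, Rpl10l and Rpl3l were at or near 0. Rpl39l, known from male germ cells (chromosome 16, 10170226 to 10174911), had 24, 31, 2 and 17 counts, against 8082, 10075, 5131 and 5851 for Rpl39, which lines the exit tunnel. Per length, Rpl39 exceeded Rpl39l 228-fold over the pooled libraries (95% counting interval 182 to 291). Rpl10l, also known from the testis, had 0 counts in all 4 libraries, against a level of 1123, 1080.4, 1123 and 1087 TPM for Rpl10, which joins the large subunit late in its assembly. At a floor of 3 counts per library, Rpl10l was at least 2863-fold lower than Rpl10 in each library. Rpl3l, known from heart and skeletal muscle, had 3 counts, all in replicate 1, against 954, 1047, 933 and 1028 TPM for Rpl3. The pooled ratio of Rpl3 to Rpl3l was 20723 (95% counting interval 7091 to 100488).

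For each of the 6 pairs the copy was lower in 4 of 4 libraries, with p = 0.125 when the signs of the differences were flipped in every way (exact permutation test, two-sided), the smallest p that 4 libraries allow, and 0.125 after Benjamini-Hochberg adjustment over the pairs. No pair could therefore pass 0.05. Rps4l, annotated as a transcribed pseudogene in GENCODE M21, was not a member and had 78 counts in all.

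**Figure D4:**
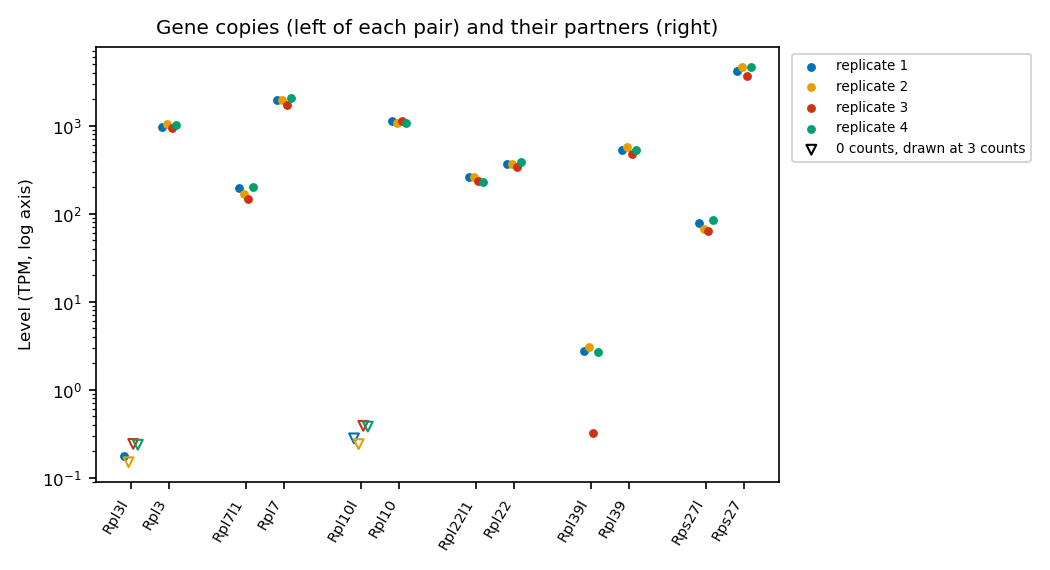
Level (TPM, log axis) of each of the 6 copies (left in each pair) and of its core partner (right) in the 4 libraries, with 1 point per library and open triangles at the level of 3 counts where a library had 0 counts. Rpl22l1 lies close to Rpl22, Rpl7l1 and Rps27l lie well below their partners, and Rpl39l, Rpl10l and Rpl3l lie at or near 0.

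Whether any gene differed between the libraries by more than genes of like abundance was asked of the counts, in 1 fit of edgeR over all genes. Of the 83 genes, 80 passed the filter on low counts, all but Rpl39l, Rpl3l and Rpl10l. None of the 80 had an adjusted p under 0.05 in edgeR's deviance against the trend, against 94 of 11567 genes tested (0.813%). Their lowest adjusted p was 0.970 and their lowest unadjusted p 0.0803. In simulated data with genes of any abundance raised in 1 library, the step called 40 of 100 raised 2-fold and 96 of 100 raised 4-fold. The widest range among the 80 genes was 0.64 in log2 CPM, less than 2-fold. The test had little power for shifts of this size, so the absence of calls does not show that the genes were equal between libraries. At an unadjusted p under 0.05 there were 0 of the 80 with edgeR, against 5.98% of all genes tested, and 1 with the size factors and dispersion trend of DESeq2. The median SD of log2 CPM between libraries was 0.201 for the 80 genes, 0.183 for all genes tested and 0.138 for all genes of at least 100 CPM. Without replicate 3 the same medians were 0.105, 0.154 and 0.105.

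The genes moved together from library to library. After TMM scaling, 79 of the 80 had their lowest value in replicate 3, against 31.9% of all genes tested and 43.5% of the 2111 other genes of at least 100 CPM. The exception was Rpl13a, lowest in replicate 2. The highest value was in replicate 4 for 56 of them and in replicate 2 for 23, against 25.4% and 27.6% of all genes tested, and in replicate 1 for 1. With each library scaled to its total only, 79 of 80 were again lowest in replicate 3, against 22.5% of all genes tested and 29.8% of the other genes of at least 100 CPM. These counts describe 4 libraries and have no test. In bulk RNA, a lower level in 1 library can mean fewer cells of a type or less RNA per cell, and these cannot be told apart.

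The size of the shared shift was small. The median deviation from each gene's mean over the libraries was -0.01, 0.12, -0.27 and 0.17 in log2 CPM in replicates 1, 2, 3 and 4. Scaled to library totals only it was -0.03, 0.11, -0.21 and 0.13. In replicate 3 large subunit genes deviated by -0.26 and small subunit genes by -0.28. Core genes with a TOP-like start deviated by -0.27 there and those with a window but no such start by -0.27. That split follows the annotated first base, so genes with the motif can lie in either group. Genes that hold a snoRNA gene deviated by -0.25 (30 genes) and those that hold none by -0.28 (50 genes). Mitochondrial ribosomal protein genes deviated in the same libraries by 0.01, -0.01, -0.15 and 0.14, and 50 of 77 were lowest in replicate 3. The 20 translation-related genes deviated by 0.02, 0.03, -0.20 and 0.16, and 17 of them were lowest there. The 16 initiation and elongation factors alone had the same medians, and 13 of them were lowest in replicate 3. The other genes of at least 100 CPM deviated by 0.03, -0.00, -0.05 and 0.03.

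**Figure D5:**
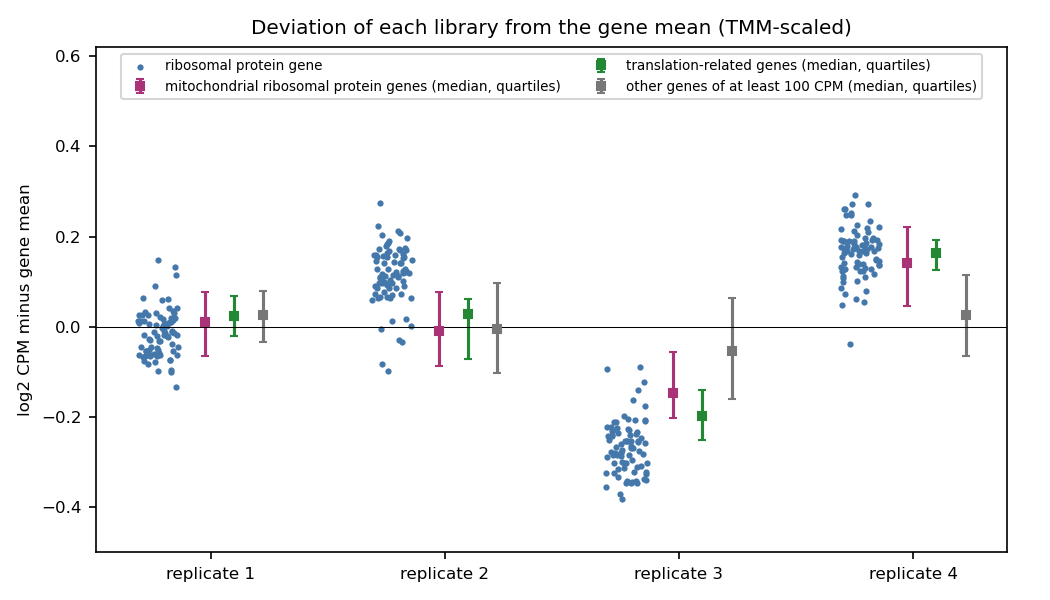
Deviation of each library from a gene's mean over the 4 libraries (log2 CPM after TMM scaling) for the 80 ribosomal protein genes tested (points), beside the median and quartiles of mitochondrial ribosomal protein genes, translation-related genes and other genes of at least 100 CPM. All 80 points lie below 0 in replicate 3, around a median of -0.27, and most lie above 0 in replicates 2 and 4.

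Other measures moved with the same libraries. The nuclear RNAs Malat1 and Neat1 were highest in replicate 3, where the ribosomal protein genes were lowest: Malat1 stood at 427, 209, 795 and 188 TPM and Neat1 at 34.8, 26.0, 58.2 and 20.7 TPM in replicates 1, 2, 3 and 4. Together they took 0.190% of counts in replicate 3, against 0.107, 0.0602 and 0.0522% in replicates 1, 2 and 4. Mitochondrially encoded genes took 2.16, 2.16, 1.98 and 2.40% of counts, also lowest in replicate 3. Their part in the shift of the ribosomal protein genes was not tested. Xist was high in replicates 3 and 4, in which the ribosomal protein genes were at their lowest and mostly at their highest. The 4 core genes on the X chromosome (Rpl10, Rpl36a, Rpl39 and Rps4x) had a median deviation of 0.09 in replicate 4, against 0.17 for the 73 autosomal ones, and of -0.28 in replicate 3, against -0.27.

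Neither the widest nor the narrowest ranges between libraries were called by edgeR. Rpl7l1 had the widest, 0.64 in log2 CPM (adjusted p = 0.970, edgeR), followed by Rps27l at 0.62. Rps29, a zinc-binding protein of the small subunit head on chromosome 12, ranged by 0.60 and stood at 1519.6, 1957, 1454 and 1809 TPM, with replicate 2 highest. Rps20, also of the small subunit head, on chromosome 4, ranged by 0.59 and stood at 921, 993, 807 and 1066 TPM. In these 4 genes replicate 3 was the lowest library. The narrowest was Rpl10, with a range of 0.14 and 1123, 1080.4, 1123 and 1087 TPM, followed by Rpl10a and Rpl13a at 0.23 each. In TPM, Rpl10 thus lay among the libraries in another order than most of the genes, with replicates 1 and 3 the highest. After TMM scaling, however, Rpl10 was lowest in replicate 3 and highest in replicate 4, at -0.09 and 0.05 from its mean in log2 CPM. The median range over the 80 genes was 0.44.

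The genes lay on 19 chromosomes, with 14 on chromosome 7 and 4 on chromosome X, so they are not a cluster in the genome. Of the 77 core genes, 30 held at least 1 of 58 snoRNA genes inside their bounds, guides for the modification of ribosomal RNA that are cut from introns. These host genes had a median level of 1415 TPM, and the 47 others 1081 TPM. The share of 31-base words found in another gene had a median of 28.3% and ran from 1.05 to 94.1%, with 9 core genes above 50%. Those 9 had a median level of 2319 TPM, against 1105 TPM for the other 68 (Spearman correlation of level with shared words 0.29 across 77 genes, a description). Whether shared words lowered the counts of these genes was not tested. With principal transcript lengths the medians lay closer together, at 1935 and 1836 TPM for these groups and at 1890.2 and 1827 TPM for host genes and others. The Spearman correlation of level with union exon length was -0.52 across the same genes, and that length is itself the divisor of the level.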

How the data were processed

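RNA-seq of 4 Th17 libraries was used as the deposited counts, whole numbers of fragments per gene, which the authors made with featureCounts 1.4.6-p4 on GENCODE M13 exons of mm10, per the file headers. Read pairs were counted once, where both ends mapped, on the reverse strand (option value 2). Without an option for multiple alignments or shared exons, these fragments drop out, which lowers genes with copies or overlapping neighbours. The aligner's version: not given in the sources used here. Output names carry a tag of 2 hours, without the event it is counted from.

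Symbols, biotypes and principal transcripts came from GENCODE M21 (50376 of 50600 identifiers matched), and promoter sequences from RefSeq (GRCm38.p6). Exon overlaps came from the deposited GENCODE M13 exon coordinates. The genes and the comparison lists were chosen with earlier results of these data known. TPM was computed from counts and deposited exon lengths, and log values used a pseudocount of 1. Variation was tested in R 4.3.3 by edgeR 4.0.16, fitting 1 mean per gene after its expression filter and TMM scaling. Each gene's negative binomial deviance at the trended dispersion was set against a chi-square distribution, with Benjamini-Hochberg adjustment over all 11567 genes tested and a threshold of 0.05; the quasi-likelihood test of a coefficient does not apply to 1 group. The step was tested on simulated data. Alternatives were other scalings, filters, pseudocounts and lengths, DESeq2 1.42.0, and leaving out each library. The genes named were the 5 highest and 5 lowest core genes, the copies and their partners, the stalk genes and the 5 widest ranges; others were named after their values were seen, and some genes are not reported here. Tables and plots were made in Python 3.11.15 (scipy 1.17.1, numpy 2.4.6, matplotlib 3.10.9, pandas 2.3.3).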

Additional observations from a re-analysis of the deposited data

Results flagged for a closer look

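In 4 libraries, 1 library can stand apart from the other 3, and chance alone flags about 1 in 20 genes; all 83 genes and the 6 pairs were checked. Among the genes reported, replicate 3 stood apart on the low side for Rpl26, Rps15a and Rpl39l. Rpl26 was at 1101 TPM there, against 1290.4 to 1328 TPM in the other libraries, and Rps15a at 419 TPM, against 514 to 533 TPM. Rpl39l was at 0.318 TPM on 2 counts, against 2.65 to 3.05 TPM, and its difference from Rpl39 was -8.49 there, against -7.18 to -7.15 in log2(TPM + 1). Rpl3l was at 0.174 TPM in replicate 1 on 3 counts, with 0 counts elsewhere. The difference of Rpl22l1 from Rpl22 was -0.76 in replicate 4, against -0.52 to -0.48 in the other libraries.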

How the results depend on the processing

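No paired analysis was possible because there is 1 group. With 1 library left out, the share of counts was 5.93 to 6.40%, the number of genes called 0, the median SD of log2 CPM 0.105 to 0.230, and the numbers of genes highest in replicates 1, 2, 3 and 4 were 1 to 8, 23 to 72, 0 and 56 to 78. The numbers lowest in replicates 1, 2, 3 and 4 were 0 to 72, 1 to 8, 79 to 80 and 0 to 1; the 72 and the 0.105 are the values without replicate 3. With library totals only, 2 genes were highest in replicate 1 and 36 in replicate 2. Leaving out a library, large minus small was -0.96 to -0.92, core minus mitochondrial 5.41 to 5.45 and core minus translation-related genes 1.14 to 1.17. With words found in no other gene as length these were -0.76, 6.02 and 1.86. With genes under 50% shared words they were -0.89, 5.35 and 1.37, and with principal transcript lengths, an alternative chosen after seeing the data, -0.59, 5.95 and 1.73. Copies included, large minus small was -1.24, and with a pseudocount of 0.1 core minus mitochondrial was 5.48. Core minus the initiation and elongation factors only, also chosen after seeing the data, was 1.47. Rpl22l1 minus Rpl22 changed sign only with principal transcript lengths, to 0.78, and was -0.59 to -0.50 without 1 library. The differences of Rpl3l, Rpl7l1, Rpl10l, Rpl39l and Rps27l from their partners were -9.97 to -9.85, -3.49 to -3.40, -10.12 to -10.10, -7.61 to -7.16 and -5.90 to -5.78 without 1 library. They were -10.62, -4.65, -10.88, -8.49 and -6.75 with principal transcript lengths, and -12.91, -13.43 and -8.20 for Rpl3l, Rpl10l and Rpl39l with a pseudocount of 0.1. TOP-like starts were 45.3% as runs of 8 pyrimidines and 9.64% at GENCODE starts, both definitions chosen after seeing the data. For 20 named genes the mean TPM moved by more than the SD between libraries with principal transcript lengths. The length is the construction of those alternatives; for the others the cause was not tested. At these depths 3 counts are 0.0738 to 0.116 CPM.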
